A study of Mus musculus with 16 samples.

Results

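Imprinted genes are the genes that a mouse cell reads mainly from 1 parental copy. The 39 members described here lie in 20 imprinted domains, taken as groups of neighbouring imprinted genes. A peak of single-strand breaks was assigned to a member when it shared at least 1 bp with the gene body or the 5 kb on either side (GENCODE M21, mm10). A peak was counted once per domain. By this rule 117 of 60797 merged peak regions, and 195 single peaks, lay at imprinted genes.

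The breaks were mapped by SSB-seq, in which E. coli DNA polymerase I adds digoxigenin-labelled nucleotides at nicks in purified genomic DNA and the labelled fragments are pulled down. All samples were embryonic stem cells from C57BL/6JRj mice, in serum-free 2i medium with LIF. Wild-type (WT) and Tdg-depleted (KO) cells were each given DMSO or 5 nM talazoparib, a PARP inhibitor, for 24 h (the time in DMSO is not stated), and each of the 4 conditions had 3 pulled-down (IP) libraries and 1 input library. The KO cells lost thymine DNA glycosylase when 4-OHT excised a Tdg minigene, and the labels do not say whether WT cells also received 4-OHT or whether each genotype was 1 clone. The 4 lists of peaks, 1 per condition, each pooled the IP libraries of their condition, so no value has a spread between replicates and no test between conditions could be made. WT and KO libraries ran on different flow cells, so genotype and flow cell cannot be told apart.

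Imprinting rests on differentially methylated regions (DMRs), stretches of DNA that carry methylation on the copy from 1 parent. Those set in egg or sperm are called germline DMRs, and most of them sit at the start of a gene that is then silent on the methylated copy. The zinc finger protein ZFP57 binds a methylated hexamer, TGCCGC, in these DMRs and brings TRIM28, SETDB1 and DNMT1, which keep the methylation through the demethylated phase of the early embryo. Embryonic stem cells in 2i medium have low methylation genome-wide, and imprints can erode there. TDG excises oxidised 5-methylcytosine, which leaves an abasic site and then a single-strand break. PARP1 binds such breaks, and talazoparib traps it on them. Which members have a germline DMR at their start is textbook knowledge used as a label here. It was not measured.

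Stretches from the shared cores of member regions are printed on the plus strand of mm10 (RefSeq sequence of GRCm38), with TGCCGC and its reverse complement GCGGCA in capitals, because the regions differ in these hexamers and in CpG density. A core is the part common to the peaks of all lists that held the region, and the stretch shown is the 200-bp window without annotated UTR that holds most hexamers and then most CpGs. The Peg3/Usp29, Mcts2 and Kcnq1ot1 stretches come from starts with a germline DMR that had a peak in every list. For Mest, also in every list, only 100 bp were free of UTR. Inpp5f has its germline DMR at an internal start, and its peak was in 3 lists. The H19 stretch is from the single peak upstream of H19, where the paternally methylated control region lies. Ube3a is the contrast, a CpG-rich start with a peak in every list and no germline DMR of its own.
Peg3/Usp29 (chr7:6729976-6730175): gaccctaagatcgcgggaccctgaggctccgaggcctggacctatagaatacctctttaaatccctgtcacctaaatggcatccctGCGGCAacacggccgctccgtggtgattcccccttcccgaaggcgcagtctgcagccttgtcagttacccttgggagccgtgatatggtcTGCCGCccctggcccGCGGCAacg
Mcts2 (chr2:152686835-152687034): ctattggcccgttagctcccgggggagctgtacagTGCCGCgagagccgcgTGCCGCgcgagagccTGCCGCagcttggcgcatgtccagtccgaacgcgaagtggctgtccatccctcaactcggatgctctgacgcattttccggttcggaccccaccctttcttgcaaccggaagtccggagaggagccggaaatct
Kcnq1ot1 (chr7:143296493-143296692): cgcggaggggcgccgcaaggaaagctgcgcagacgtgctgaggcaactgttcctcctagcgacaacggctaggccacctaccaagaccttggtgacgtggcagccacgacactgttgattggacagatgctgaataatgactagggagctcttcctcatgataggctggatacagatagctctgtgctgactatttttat
Mest (chr6:30738336-30738435): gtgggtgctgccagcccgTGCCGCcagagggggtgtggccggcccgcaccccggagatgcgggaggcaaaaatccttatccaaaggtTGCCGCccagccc
Inpp5f (chr7:128688258-128688457): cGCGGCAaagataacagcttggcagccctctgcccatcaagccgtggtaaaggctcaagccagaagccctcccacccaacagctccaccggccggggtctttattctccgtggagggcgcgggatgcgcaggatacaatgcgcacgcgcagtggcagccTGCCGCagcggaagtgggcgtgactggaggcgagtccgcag
H19 (chr7:142581681-142581880): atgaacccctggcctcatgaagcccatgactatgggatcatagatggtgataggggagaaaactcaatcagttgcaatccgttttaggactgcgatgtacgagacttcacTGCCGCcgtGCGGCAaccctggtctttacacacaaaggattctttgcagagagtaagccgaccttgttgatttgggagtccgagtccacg
Ube3a (chr7:59228550-59228749): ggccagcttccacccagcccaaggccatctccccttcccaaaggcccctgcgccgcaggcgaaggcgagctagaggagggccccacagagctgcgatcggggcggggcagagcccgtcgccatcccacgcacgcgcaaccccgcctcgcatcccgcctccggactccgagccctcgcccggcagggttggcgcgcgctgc
The cores held 8 hexamers at Peg3/Usp29 in 3503 bp, 7 at Mest in 470 bp, 3 at Mcts2 in 713 bp and 3 at Inpp5f in 626 bp, some of them outside the stretches shown. No hexamer was present in the cores at Kcnq1ot1 (497 bp), Ube3a (756 bp) or Zrsr1 (708 bp), which says only that these letters are not in those windows. Among all 4760 regions with 1 peak in each list and a core of at least 200 bp, 42.0% held a hexamer. Of the 6 such regions at imprinted genes, 3 did. Median CpG density of the cores was 7.32 per 100 bp at imprinted genes and 7.56 per 100 bp over all.

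The lists rested on 66.4 to 87.0 M IP tags and 24.5 to 38.1 M input tags, and held 15544 to 35459 peaks. Every listed peak had at least 4.00 times as many scaled IP tags as input tags. The median peak had 2 to 4 input tags, so a region missing from a list may have broken DNA that did not pass this ratio. Cell-type markers cannot be checked in genomic DNA. The window of the Tdg gene had 1 peak in WT DMSO, 2 in KO DMSO and 0 in both talazoparib lists, which does not check the genotype. Runs of 4 values below give WT cells first and KO cells next, each with DMSO before talazoparib.

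Imprinted genes held 52 peaks in the WT DMSO list and 19 with talazoparib, and in KO cells 74 with DMSO and 50 with talazoparib. Per Mb of their 2.22 Mb of windows these were 23.4, 8.56, 33.4 and 22.5 peaks, against 10.8, 5.86, 13.4 and 9.04 peaks per Mb of the sequenced genome. The genome values also cover DNA far from genes, which the windows leave out, so these densities are not like for like. A peak was found at 31, 18, 31 and 28 of the 39 members, or 79.5%, 46.2%, 79.5% and 71.8%. The background shares over 30751 annotated genes were 52.7%, 41.1%, 58.2% and 50.4%. Members therefore stood above the share of all genes in each list, by the least in WT talazoparib, with start CpG density and gene length not matched. With only peaks of at least 6-fold over input, 28.2%, 28.2%, 66.7% and 30.8% of members had a peak, against 23.3%, 26.4%, 42.9% and 21.2% of all genes. With the same number of best-scoring peaks from each list (15526), the members' shares were 59.0%, 46.2%, 64.1% and 66.7%, against 41.9%, 41.1%, 42.7% and 42.8%.

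**Figure D1:**
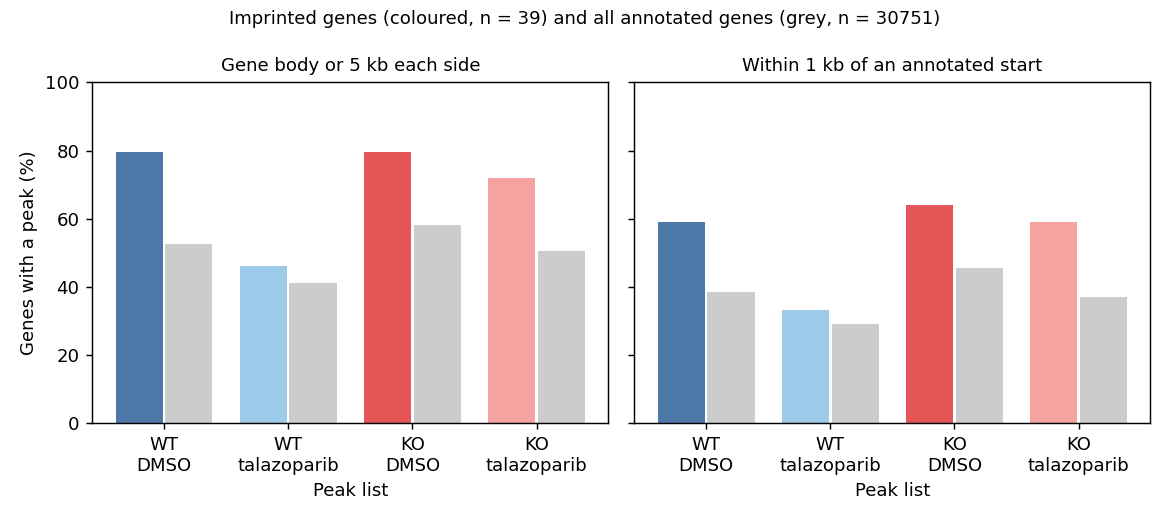
Bars give the percentage of genes with a peak (y axis) in each of the 4 peak lists (x axis), for the 39 imprinted genes in colour and the 30751 annotated genes in grey; the left panel uses the gene body and 5 kb each side, the right panel 1 kb around annotated starts. The coloured bar is above the grey bar in all 8 pairs, with the narrowest gaps in WT talazoparib.

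Starts were counted on their own. A peak lay within 1 kb of an annotated start of 23, 13, 25 and 23 members, or 59.0%, 33.3%, 64.1% and 59.0%, against 38.5%, 29.2%, 45.6% and 37.1% of all genes. In at least 1 list, 31 members had such a peak, and no share of all genes is given for this count. Starts of imprinted genes are rich in CpG, and this moved with the result: 26 of 39 members, but 11920 of 30751 genes, had a start with 5 or more CpGs per 100 bp. Within that CpG-rich class, 73.1%, 38.5%, 69.2% and 61.5% of members had a start peak, against 73.8%, 60.6%, 86.3% and 72.1% of all genes of the class. In that class the members were not above the background in any list, and in WT talazoparib 10 of 26 had a start peak. Of the 10 members in the class of 2 to under 5 CpGs per 100 bp, 4, 3, 6 and 6 had a start peak, against 37.8%, 23.4%, 46.5% and 36.1% of genes. Of the 3 members below 2 CpGs per 100 bp (Ndn, Rtl1 and Slc22a18), 0, 0, 1 and 1 did, against 4.89%, 2.13%, 6.19% and 4.06%. In the CpG-rich class, 84.6%, 53.8%, 80.8% and 80.8% of members had a peak in the window, not above the genes of the class in any list. The share of those genes was 85.0% in WT DMSO, and it ran from 72.4% (WT talazoparib) to 92.3% (KO DMSO). A peak in the window was found at 7, 4, 8 and 6 of the 10, against 57.8%, 39.7%, 64.7% and 54.8% of genes. For the 3, it was found at 2, 0, 2 and 1, against 19.2%, 11.9%, 22.3% and 16.8%. Gene length moved too, with a median of 25.6 kb for members and 13.2 kb for all genes. Among the 13 members shorter than 5 kb, 10, 5, 10 and 8 had a peak in their window, against 35.8%, 25.6%, 40.4% and 33.4% of genes of that length. Of the 12 members of 5 to 50 kb, 8, 4, 8 and 8 did, against 55.2%, 42.7%, 61.0% and 52.8%. Of the 14 over 50 kb, 13, 9, 13 and 12 did, against 69.0%, 58.1%, 75.0% and 67.0%.

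Of the 39 members, 16 had a peak in all 4 lists: Cdkn1c, Dio3, Gnas, H13, Impact, Inpp5f, Kcnq1, Kcnq1ot1, Mcts2, Mest, Nnat, Peg3, Sgce, Ube3a, Usp29 and Zrsr1. A further 8 had one in every list but WT talazoparib: Grb10, Igf2, Peg10, Phlda2, Plagl1, Slc22a18, Slc38a4 and Zim1. Igf2r and its antisense transcript Airn lacked a peak only in KO talazoparib. Of the rest, Ndn and Peg12 were in both DMSO lists, Mkrn3 and Rasgrf1 in WT DMSO and KO talazoparib, Ascl2 and Snrpn in both KO lists, H19 in WT DMSO alone and Magel2 in KO DMSO alone. By domain, 18, 13, 17 and 17 of 20 had a peak, and 12 had one in all lists. No share of all genes is given for these combinations, and WT talazoparib was the list with the fewest peaks, 15544.

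**Figure D2:**
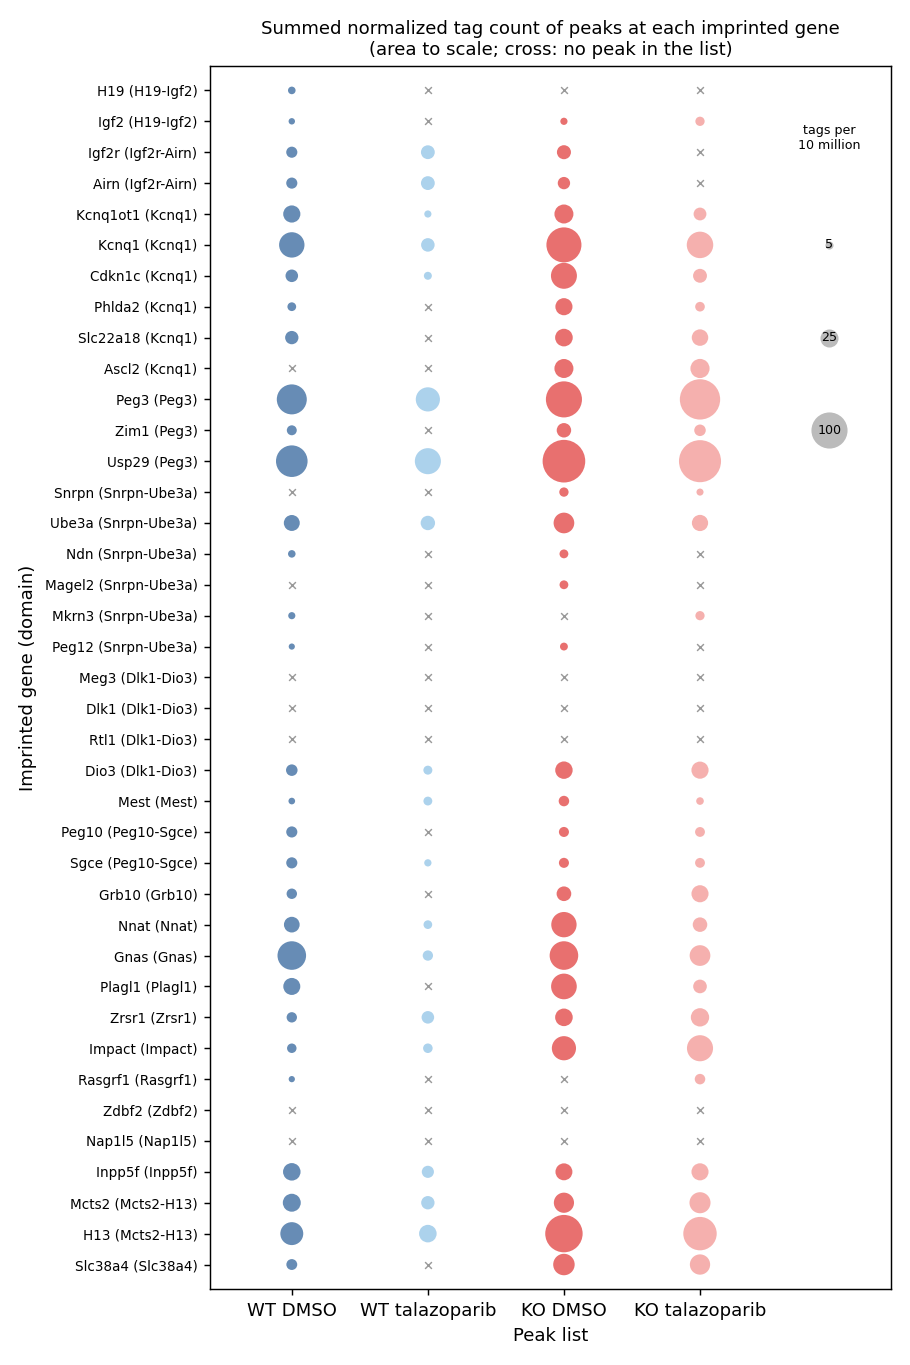
Each row is 1 imprinted gene with its domain, each column 1 peak list, and the area of a dot is the summed normalized tag count (tags per 10 M) of the peaks at the gene; a cross marks no peak, and neighbours in a domain may share a peak. Crosses are most frequent in the WT talazoparib column, where 21 genes have none, and the widest dots are those of Peg3 and Usp29, which share 1 region.

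A germline DMR is known at a start of 18 members. Of them, 16, 12, 17 and 16 had a peak in their window and 14, 10, 13 and 13 had one at a start. Any annotated start of the member was counted, which need not be the start with the germline DMR. Impact in WT DMSO and Inpp5f in KO DMSO, for example, were counted through other starts. The shares over all genes, which hold for each set that follows, were 52.7%, 41.1%, 58.2% and 50.4% for windows and 38.5%, 29.2%, 45.6% and 37.1% for starts, and for starts with 5 or more CpGs per 100 bp 73.8%, 60.6%, 86.3% and 72.1%. Of the other 21 members, 15, 6, 14 and 12 had a peak and 9, 3, 12 and 10 had one at a start. The median CpG density at starts was 6.15 per 100 bp in the first set and 7.9 per 100 bp in the second, against 3 per 100 bp over all genes. Of the 12 members expressed mainly from the maternal copy, 10, 5, 10 and 9 had a peak, and of the 26 expressed from the paternal copy, 20, 12, 20 and 18 did. At a start, 4, 3, 10 and 7 of the maternal set had a peak, and 18, 9, 14 and 15 of the paternal set. Gnas, which makes transcripts from either copy, had peaks in all lists.

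Peaks of the 4 lists that touched were merged, and 6 of the 117 merged regions at imprinted genes (5.13%) were present in all lists, against 9.47% of all merged regions. All 6 lay at a start, for which no share over all regions in every list is given, and at 5 of them the start is known to carry a germline DMR. The sixth was the start of Ube3a. The most heavily tagged of them, and the highest of all member peaks in each list, spanned the divergent starts of Peg3 and Usp29 at chr7:6726697-6731328, where the first introns and exons of both genes lie. Peg3 encodes a zinc finger protein and Usp29 a deubiquitinase, both read from the paternal copy. The normalized tag count, in tags per 10 M IP tags, was 69.0 in WT DMSO (95% Poisson interval 63.6 to 74.7) and 44.8 with talazoparib (40.4 to 49.6), and in KO cells it was 99.8 with DMSO (92.5 to 107.5) and 120.7 with talazoparib (112.5 to 129.4). The 4 intervals, which cover counting error only, did not overlap, and the peak ranked at or above percentile 99.3 of each list by this count. The count sums over the peak, which was 3870 to 4278 bp wide against a median of 629 to 722 bp for all peaks. Peaks of 1 region differ in width between lists, and a difference in count can therefore have the opposite direction per bp, so the IP density, in multiples of its genome mean, is given beside counts whose order it changes. At Peg3/Usp29 the density was 4.56, 2.91, 6.83 and 7.47. Input tags in the same peaks moved in the same order, at 9.45, 7.35, 11.3 and 15.2 per 10 M input tags (36, 18, 28 and 43 tags), and their part in the result was not tested.

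The start of Mcts2, a retrogene inside an intron of H13 that is related to the translation factor MCTS1, had normalized tag counts of 24.7 (21.5 to 28.2), 13.7 (11.3 to 16.5), 31.2 (27.2 to 35.7) and 34.0 (29.7 to 38.8) at chr2:152686360-152687759. The count was lowest in WT talazoparib, where the interval lay below the other three. Per bp this peak was the densest of all member peaks in KO talazoparib, at 10.2 times the genome mean of the IP. It carries the 3 closely spaced hexamers printed above. Its input tags were also lowest in WT talazoparib, at 1.43 per 10 M (3.5 tags) against 4.07, 5.03 and 7.24 in the other lists.

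Kcnq1ot1 is the noncoding RNA that silences its neighbours on the paternal copy, and its start lies in an intron of Kcnq1. At chr7:143295567-143297351 the counts were 11.1 (9.04 to 13.6), 3.94 (2.71 to 5.53), 18.6 (15.6 to 22.2) and 12.6 (10.1 to 15.7). WT talazoparib was again lowest, on a peak of 626 bp with 1 input tag. Its density was lowest too, at 1.67 against 2.80 in WT DMSO, 3.01 in KO DMSO and 3.79 in KO talazoparib. Zrsr1, a retrogene for a splicing factor within an intron of Commd1, had 8.22 (6.48 to 10.4), 12.1 (9.81 to 14.6), 23.7 (20.2 to 27.6) and 25.8 (22.0 to 29.9) at chr11:22971184-22973309. The KO counts were higher there and the WT intervals overlapped, but the peaks were 707, 1336, 2026 and 1423 bp wide. Per bp the densities were 3.08, 2.40, 3.10 and 4.80, so the DMSO lists were nearly equal and KO talazoparib was highest. Input tags were 1.71, 1.63, 4.43 and 4.94 per 10 M, and their part in the result was not tested. Since the region also lies within 1 kb of a Commd1 start, the genes cannot be told apart.

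Mest, which encodes an enzyme of the alpha/beta hydrolase family, had the lowest count and density of the 6 regions in every list but WT talazoparib, where Kcnq1ot1 was lower. The region was chr6:30737704-30738649, in the 5′ UTR. Its counts were 3.39 (2.23 to 4.79), 6.02 (4.43 to 7.86), 8.46 (6.49 to 11.0) and 4.44 (2.92 to 6.27), and the KO DMSO interval lay above those of WT DMSO and KO talazoparib but overlapped that of WT talazoparib. The peaks were 500, 756, 945 and 500 bp wide, and the densities of 1.80, 2.11, 2.37 and 2.35 were nearly equal in the KO lists. The Ube3a start, at chr7:59228181-59229783, had 19.5 (16.7 to 22.7), 15.9 (13.3 to 18.8), 32.8 (28.7 to 37.4) and 20.2 (16.9 to 23.9). The count in KO DMSO stood above the others, whose intervals overlapped. The peaks were 1423, 755, 1561 and 1012 bp wide, and per bp the order was another: WT DMSO was lowest at 3.63, and WT talazoparib (5.58), KO DMSO (5.56) and KO talazoparib (5.28) lay close together. Ube3a encodes an E3 ubiquitin ligase that is imprinted in neurons and read from both copies in most other cells.

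**Figure D3:**
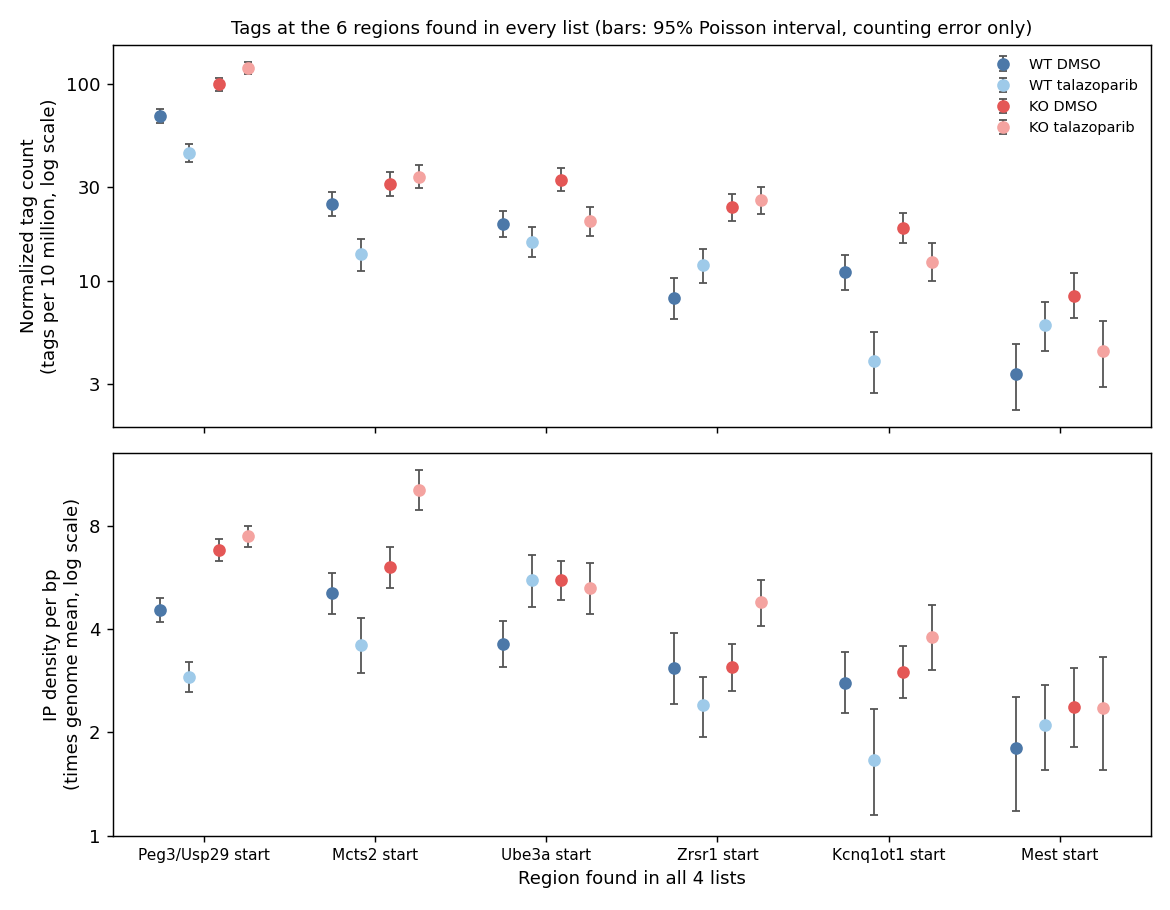
Points give, at the 6 regions found in every list (x axis), the authors' normalized tag count (top, tags per 10 M, log y axis) and the IP density per bp (bottom, multiples of its genome mean, log y axis) in each of the 4 lists, with 95% Poisson intervals that cover counting error only. In counts WT talazoparib is the lowest point at Peg3/Usp29, Mcts2, Ube3a and Kcnq1ot1; per bp it is the lowest at Peg3/Usp29, Mcts2, Kcnq1ot1 and Zrsr1 but not at Ube3a, where its peak is the narrowest and its density, 5.58, is close to those of the KO lists.

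The other strong regions were missing from at least 1 list. Impact, which encodes an inhibitor of the eIF2alpha kinase GCN2, has its germline DMR in the first intron, and a region there, within 1 kb of an annotated internal start, was absent from WT DMSO. It had 6.98 (5.36 to 9.08) in WT talazoparib, 36.1 (31.8 to 40.9) in KO DMSO and 52.2 (46.9 to 58.0) in KO talazoparib, the highest value after Peg3/Usp29. Those peaks were 625, 2470 and 1896 bp wide, and per bp their densities were 2.96, 3.87 and 7.29 times the genome mean. The main start of Impact was in the DMSO lists only, at 6.90 in WT and 8.75 in KO, with densities of 2.91 and 2.51.

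Inpp5f encodes an inositol phosphatase. The internal start with its germline DMR, at chr7:128687848-128688886, had 8.74 (6.88 to 10.9) in WT DMSO, 11.3 (9.17 to 13.9) in WT talazoparib and 22.4 (18.97 to 26.3) in KO talazoparib, and was not in KO DMSO. Per bp WT talazoparib was lowest, at 2.88 against 3.70 and 6.69 in the other two. The main start, at chr7:128610615-128611812, showed another pattern, with 9.48 in WT DMSO and 18.3 in KO DMSO and no peak with talazoparib.

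Nnat, a small membrane protein gene within an intron of Blcap, had its strongest region at a Blcap start, chr2:157565729-157568207, with 12.3 in WT DMSO, 36.4 in KO DMSO and 16.2 in KO talazoparib. Those peaks were 1188, 2478 and 921 bp wide, and per bp KO talazoparib was highest, at 4.66 against 2.74 and 3.89. Peaks at the Nnat start itself had lower counts, with 6.61 in WT DMSO, 5.79 in WT talazoparib and, at another position, 7.45 in KO DMSO. The WT densities were 2.76 with DMSO and 3.07 with talazoparib. Gnas, which encodes the stimulatory G protein alpha subunit and has several alternative first exons, had 9 regions. The highest, at a Nespas start, chr2:174294525-174296495, had 24.5 in WT DMSO and 17.2 in KO DMSO and was in neither talazoparib list. Its peaks were 1970 and 897 bp wide, and the density was higher in KO DMSO, at 5.08 against 3.29. The upstream-most start region, chr2:174283894-174285819, had 11.5, 16.3 and 12.3 in all lists but WT talazoparib, with densities of 2.06, 2.24 and 3.92. In WT talazoparib the gene had 1 peak, at chr2:174328875-174329817, with 8.17 against 3.33 in WT DMSO and 10.6 in KO DMSO. Of the 3 regions at the downstream Gnas starts, that was the one present in the WT talazoparib list. The others had 13.3 and 12.1 (WT DMSO and KO talazoparib, with densities of 4.39 and 5.04) and 5.34, 8.39 and 4.14 (all but WT talazoparib).

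Plagl1, a zinc finger transcription factor gene, had 4, 0, 4 and 2 peaks. Its start regions were chr10:13060194-13061573, with 11.4 and 10.4 in the KO lists (densities of 2.19 and 2.93), and chr10:13090208-13091307, with 8.62 in WT DMSO and 15.5 in KO DMSO. Grb10, which encodes an adaptor that restrains growth-factor signalling, had 2, 0, 4 and 4 peaks. Peaks at its starts were in the KO lists only, at 3.61 in KO DMSO and, at another start, 10.3 in KO talazoparib, while the single region shared by 3 lists lay in the gene body, with 3.45, 4.19 and 3.84 in all but WT talazoparib. Slc38a4, an amino acid transporter gene, had 2, 0, 6 and 5 peaks. One start region had 4.54, 3.76 and 6.25 in all lists but WT talazoparib (densities of 1.60, 1.99 and 2.43). Another had 4.54, 6.80 and 9.33 in the same lists (2.40, 2.29 and 3.12).

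Peg10 and Sgce share a divergent start, where the only peak was in WT DMSO at 3.28. Peg10 derives from a retrotransposon and Sgce encodes epsilon-sarcoglycan. A region chr6:4748896-4749774 near that start had 6.21, 7.74 and 7.45 in all lists but WT talazoparib, with densities of 2.05, 2.69 and 3.04. In WT talazoparib a single peak of 4.06 lay in the Sgce gene body. H13, which encodes signal peptide peptidase, had 4, 2, 8 and 7 peaks with the shared Mcts2 peak included. Its own start had 8.68, 18.2 and 16.3 in all lists but WT talazoparib, and the KO densities were 3.98 with DMSO and 4.79 with talazoparib. Its 3′ end, chr2:152706929-152708291, had 9.96 in WT talazoparib and 20.0 in KO DMSO, with densities of 4.19 and 3.89.

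Zim1 and Usp29 hold the remaining regions of the Peg3 domain. The start of Zim1, a maternally read zinc finger gene, was in the KO lists only, at 10.8 with DMSO and 10.2 with talazoparib, and an intronic Zim1 region had 7.59 in WT DMSO and 5.21 in KO DMSO. Along the long Usp29 gene, 10 further regions were mostly in single lists. The exception, an intronic region at chr7:6770078-6771311, had 7.53 in WT DMSO, 14.4 in KO DMSO and 7.60 in KO talazoparib.

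The Kcnq1 domain held 12, 3, 16 and 9 peaks in 26 merged regions over 6 members, the most of the 20 domains in every list but WT talazoparib, where the Peg3 domain also had 3. Its maternally read genes are Kcnq1, a potassium channel, Cdkn1c, a cyclin-dependent kinase inhibitor, Phlda2 and Ascl2, which act in the placenta, and Slc22a18, a transporter. The Cdkn1c start, chr7:143459740-143461802, had 12.1 in WT DMSO, 37.5 in KO DMSO and 14.8 in KO talazoparib. Those peaks were 805, 2062 and 639 bp wide, and per bp KO talazoparib was highest, at 6.13 against 3.98 and 4.81. In WT talazoparib the Cdkn1c window had only an upstream peak of 4.89. The start of Ascl2, a basic helix-loop-helix factor, was in the KO lists only, with 27.7 (DMSO) and 28.2 (talazoparib) and densities of 6.03 and 5.78, and had no peak in either WT list. Slc22a18 starts were also in the KO lists only, at 4.12 and 5.49 with DMSO and 13.7 with talazoparib, and the Phlda2 start in KO DMSO only, with 14.2. Phlda2 and Slc22a18 had peaks elsewhere in WT DMSO, of 3.56 to 6.32. The Kcnq1 start had 10.1 in WT talazoparib and 12.9 in KO DMSO. In introns near the 5′ end of Kcnq1 a group of regions lay between 143118821 and 143126403 on chromosome 7, of which the one found in 3 lists had 11.1 in WT DMSO, 17.9 in KO DMSO and 21.4 in KO talazoparib. In WT talazoparib the domain thus had 3 peaks, 1 each at the Kcnq1 start, the Kcnq1ot1 start and upstream of Cdkn1c.

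**Figure D4:**
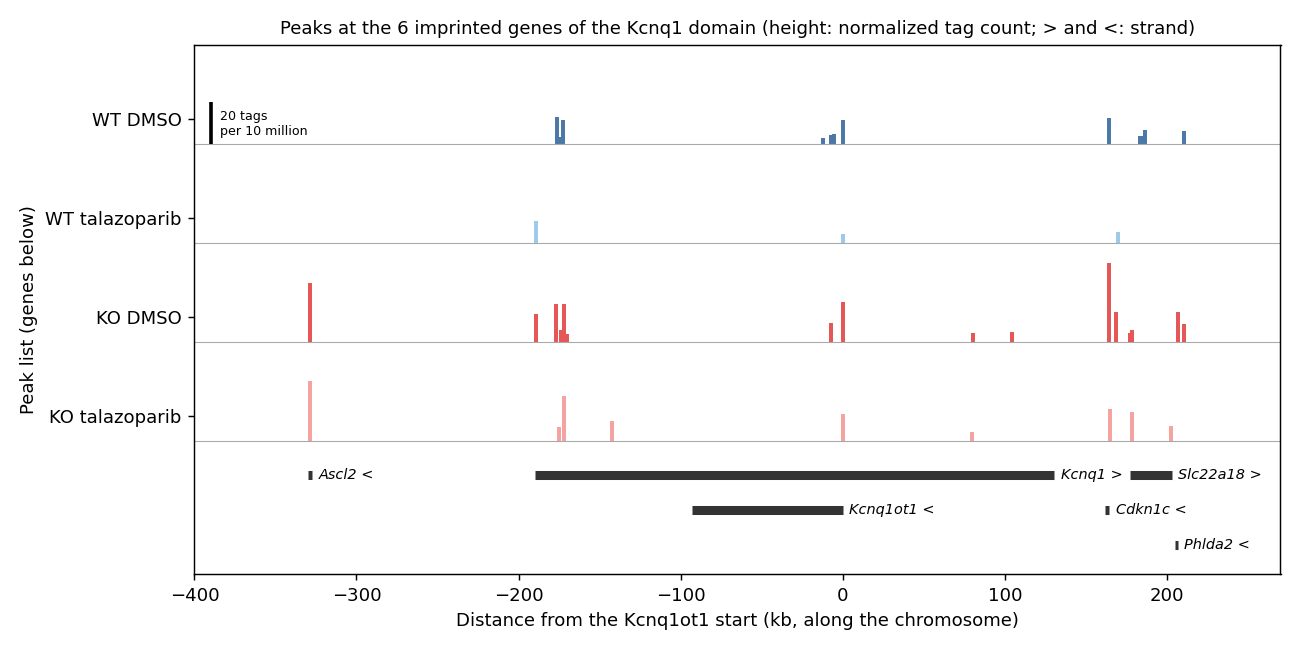
Vertical bars mark peaks at the 6 imprinted genes of the Kcnq1 domain in each of the 4 lists, placed by distance from the Kcnq1ot1 start in kb (x axis) with height to scale as the normalized tag count; gene bodies are drawn underneath with their strand. The Kcnq1ot1 start has a bar in every list, the Ascl2 start only in both KO lists, and WT talazoparib has 3 bars in all.

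The Snrpn-Ube3a domain held 4, 1, 5 and 3 peaks, and apart from the Ube3a start all were weak. Snrpn, a splicing factor gene whose start is the imprinting centre of the domain, had no WT peak. It had an intronic peak of 6.65 in KO DMSO and a peak of 3.84 at the start in KO talazoparib. The MAGE-family genes Ndn and Magel2 and the makorin gene Mkrn3 lie far upstream and are silent on the maternal copy. Ndn had 4.37 in WT DMSO and 6.00 in KO DMSO, in an annotated UTR more than 1 kb from its annotated start. Magel2 had 5.93 in KO DMSO only, and Mkrn3 had 3.91 in WT DMSO and 6.55 in KO talazoparib. Peg12 had adjoining peaks that did not share a base, of 2.93 in WT DMSO and 4.77 in KO DMSO. These values come from about 25 to 46 IP tags each, against a lowest of 18.5 tags for any peak in the lists.

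The paternally methylated DMRs lie between genes, and the members around them had few peaks. H19, a noncoding RNA gene, had the single WT DMSO peak of 4.43 (3.19 to 6.13), centred 3430 bp upstream of its start at chr7:142581251-142581895. Igf2, the growth factor gene that shares its enhancers, had 1 peak each in WT DMSO (3.16), KO DMSO (3.98) and KO talazoparib (6.62), at different positions. Dlk1, a Notch-family ligand gene, the noncoding RNA gene Meg3 and the retrotransposon-derived Rtl1 had no peak in any list. At the other end of that domain, Dio3, which encodes a thyroid hormone deiodinase, had a region at its start in both KO lists (15.1 and 19.1) and another, 652 bp further on, in both WT lists (10.2 and 6.20), with no base shared. Rasgrf1, a guanine nucleotide exchange factor gene, had a start region with 2.99 in WT DMSO and 4.97 in KO talazoparib. Zdbf2, a zinc finger gene, had no peak in any list. Nap1l5, a nucleosome assembly protein gene, had none either, but its known germline DMR is at its own start and not between genes.

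Igf2r encodes the receptor that clears IGF2, and Airn is the antisense noncoding RNA that silences it on the paternal copy. The Igf2r start, chr17:12769265-12770241, had 9.48 in WT DMSO, 10.3 in WT talazoparib and 11.7 in KO DMSO, with overlapping intervals and densities of 3.09, 2.97 and 4.03, and no peak in KO talazoparib. The Airn start, inside Igf2r and known to carry the germline DMR, had no peak in any list.

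The lists were then compared pair by pair. The pairs share lists, so their values are set side by side and not combined. Of 52 WT DMSO peaks at imprinted genes, 11 (21.2%) overlapped a WT talazoparib peak, against 28.4% of all WT DMSO peaks. The same 11 were 57.9% of the 19 WT talazoparib peaks, against 52.4% of all. In KO cells 29 of 74 DMSO peaks (39.2%) overlapped a talazoparib peak, against 39.4%, and they made up 58.0% of the 50 KO talazoparib peaks, against 59.0%. Between genotypes, 30 of 52 WT DMSO peaks (57.7%) overlapped a KO DMSO peak, against 52.1%, and were 40.5% of the KO DMSO peaks, against 41.4%. With talazoparib, 8 of 19 WT peaks (42.1%) overlapped a KO peak, against 50.3%, and were 16.0% of the KO peaks, against 32.5%. The gap to the background was widest for this last share.

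Where both lists of a pair had exactly 1 overlapping peak in a region, tags per kb were compared on a log2 scale. This difference and that of the summed counts had opposite directions in 5 of 11 imprinted regions for talazoparib against DMSO in WT cells and in 10 of 29 in KO cells. For KO against WT this was so in 3 of 30 regions in DMSO and in 2 of 8 with talazoparib. Over all regions the shares were 31.0%, 39.1%, 18.7% and 11.7%. In WT cells the talazoparib minus DMSO difference had a median of -0.36 over 11 imprinted regions (range -0.75 to 0.97), against -0.08 over all 7692 regions, and 4 of 11 were above 0 against 42.2% of all. The Kcnq1ot1 start (-0.75), the Dio3 region (-0.72) and the Peg3/Usp29 (-0.65) and Mcts2 (-0.50) starts had the lowest values. The Gnas region (0.97) and the Ube3a start (0.62) had the highest. In KO cells the median was 0.26 over 29 regions (-0.66 to 0.91), against 0.17 over 13513, and 20 of 29 were above 0 against 69.5% of all. Impact (0.91), the upstream-most Gnas start region (0.81), Mcts2 (0.75) and Zrsr1 (0.63) had the highest values.

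The KO minus WT difference in DMSO had a median of 0.35 over 30 imprinted regions (-0.40 to 1.00), equal to the 0.35 over all 14164 regions, and 28 of 30 were above 0 against 88.1% of all. Gnas (1.00), Plagl1 (0.95) and Phlda2 (0.92) were highest, and Zim1 (-0.40) and Impact (-0.21) were below 0. With talazoparib the KO minus WT median was 1.20 over 8 imprinted regions (-0.08 to 1.51), against 0.64 over all 7397 regions, and 7 of 8 were above 0 against 91.6% of all. Mcts2 (1.51), Peg3/Usp29 (1.36) and Impact (1.30) lay above the 90th percentile of all regions, 1.26, Inpp5f (1.21), Kcnq1ot1 (1.19) and Zrsr1 (1.00) lay below it, and Mest (0.16) and Ube3a (-0.08) were near 0. All 8 regions were at starts, and 7 of them carry a known germline DMR, Ube3a being the exception. No share at starts is given for all regions of this pair. Of the 13 members with a start peak in WT talazoparib, 10 have a germline DMR at a start, and a peak at any annotated start of the gene was counted. These differences use IP tags alone, and the part of input was not tested. Fold over input was lower in KO at Mcts2 (4.70 against 9.60), Kcnq1ot1 (5.12 against 9.65), Zrsr1 (5.22 against 7.42) and Inpp5f (4.38 against 4.63). It was higher in KO at Peg3/Usp29 (7.95 against 6.10), Impact (6.29 against 5.70), Mest (5.03 against 4.22) and Ube3a (5.46 against 4.32). With 8 regions, 1 list on each side and flow cells that differ, this is a description of these lists.

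**Figure D5:**
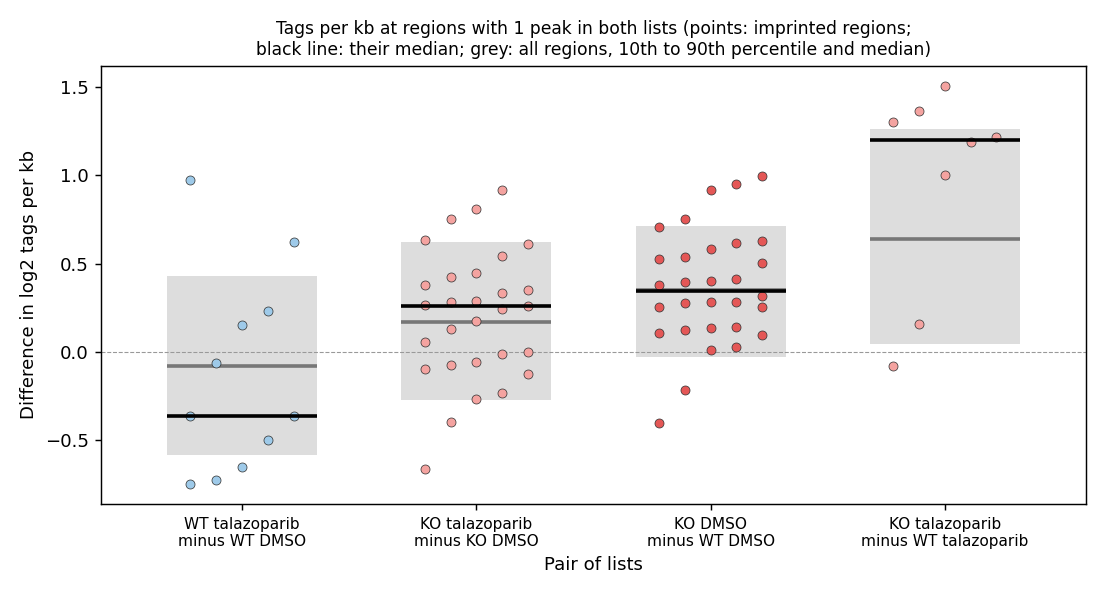
Each point is 1 imprinted region with 1 peak in both lists of a pair (x axis) and its difference in log2 tags per kb (y axis); black lines are medians of the points, grey boxes span the 10th to the 90th percentile of all regions with their median as a grey line. Medians of imprinted regions and of all regions are both 0.35 for KO minus WT in DMSO, and 1.20 against 0.64 for KO minus WT with talazoparib.

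Peaks at imprinted genes were near a member's start in 27 of 52, 12 of 19, 31 of 74 and 27 of 50 cases, and 23, 7, 39 and 21 were near no annotated start of any gene. Their centres lay in an intron in 27, 10, 41 and 33 cases. No shares over all peaks are given for these places. Median normalized tag counts were 5.60, 6.98, 7.45 and 7.45 at imprinted genes, against 4.83, 5.07, 6.87 and 7.45 over all peaks of each list. Median densities per bp were 2.135, 2.88, 2.48 and 2.96 times the genome mean, against 2.00, 2.11, 2.53 and 2.91 over all peaks. In KO DMSO the median density was thus lower at imprinted genes. The peaks were richer in CpG than the lists as a whole, with medians of 3.45, 5.86, 2.62 and 3.37 per 100 bp against 2.00, 3.18, 2.10 and 2.40. Median GC content was 56.0%, 57.0%, 54.0% and 55.0%, against 52.5%, 54.8%, 52.3% and 53.5%. The hexamer TGCCGC, on either strand, was present in the central 500 bp of 14 of 52 (26.9%), 6 of 19 (31.6%), 18 of 74 (24.3%) and 14 of 50 (28.0%) peaks, against 17.7%, 22.3%, 18.2% and 19.3% of all peaks. The CpG, GC and hexamer values were not matched for nearness to a start. Neighbouring peaks share CpG-rich DNA, and a match is not a bound site.

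The genes for 10 factors that set or protect imprints were looked up by the same rule, and 8, 6, 10 and 9 of them had a peak. Among all genes with a CpG-rich start (5 or more CpGs per 100 bp) the shares ran from 72.4% (WT talazoparib) to 92.3% (KO DMSO), and over all genes they were 52.7%, 41.1%, 58.2% and 50.4%. Zfp57, Trim28, Dnmt1, Uhrf1 and Dnmt3l had a start peak in every list. Zfp445, a zinc finger gene that acts beside Zfp57, and Dppa3, which shields maternal methylation in the zygote, had peaks only in the KO lists. Of 20 neighbours or host genes of the domains that were not members, 16, 15, 15 and 15 had a peak, and Casd1, beside Sgce, had none in any list.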

How the data were processed

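Genomic DNA of 16 libraries (3 IP and 1 input in each of 4 conditions) was measured, and 4 deposited tables, 1 per condition with replicates pooled by the authors, were used. Per the submitters' processing notes, HOMER 4.11, Bowtie2 2.3.4.2, Picard 2.9.2, R 3.6 and build mm10 were used, with no settings or roles stated. Per the file headers, the deposited normalized tag count is a signal in tags per 10000000 IP tags. The deposited input tags are a signal too, in steps of 0.5 tags, and a further deposited column (other) holds IP tags rescaled by the authors to the total of the input. The deposited ratio (fold) divides those by the input tags, the deposited p-value is the caller's, and the authors' score ranked peaks in 1 alternative. Calling and filtering settings are not given in the sources used here.

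IP totals were estimated from the steps of normalized tag counts under 6 (100% on a step) and input totals from the scaling. WT cells had 87.0 M IP tags with DMSO and 83.8 M with talazoparib, and KO cells 69.2 M and 66.4 M. Their input totals were 38.1, 24.5, 24.8 and 28.3 M in the same order. Intervals are exact 95% Poisson intervals on IP tags, cover counting error only, and treat PCR reads as independent. Gene windows, starts and classes came from GENCODE M21 (protein-coding, lincRNA and antisense genes on chromosomes 1 to 19, X and Y), sequences from RefSeq GRCm38, with Python 3.11.15, pandas 2.3.3, numpy 2.4.6, scipy 1.17.1 and pysam 0.24.0. Coordinates are as the tables give them; the first base of a start (0 or 1) is not stated. Overlap counting, region merging and the estimate of IP totals were tested on simulated data. The Poisson intervals were not part of that test.

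The planned design had no test, because each condition has 1 pooled list. Named with values are members with a peak within 1 kb of a start, members with no peak and the 10 member regions with the highest counts; other members and regions named were chosen after their values were seen. The members and lists were chosen with earlier results of these data known. Alternatives changed the flank, fold, input minimum, number of peaks, overlap and window.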

Additional observations from a re-analysis of the deposited data

How the results depend on the processing

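No paired analysis was possible because replicates are pooled in the peak lists, and for the same reason no library could be left out. The counts of peaks, members and domains per list, and the 6 regions found in all lists, were recomputed under other settings, and 50 of 68 values stayed within 1.5-fold. With at least 6-fold over input, there were 11 peaks for WT DMSO, 9 in WT talazoparib and 16 in KO talazoparib, members with a peak to 11, 11 and 12, domains to 6, 7 and 8, and regions in all lists to 1 (Peg3/Usp29). KO DMSO stayed within 1.5-fold. With at least 3 input tags, WT talazoparib had 12 peaks, and KO cells 37 with DMSO and 32 with talazoparib. With 15526 best-scoring peaks per list, peaks were 30 in WT DMSO and, in KO cells, 32 with DMSO and 31 with talazoparib, and regions in all lists were 3 (Mcts2, Ube3a and Kcnq1ot1). Over whole domains, WT talazoparib had 30 peaks. The stricter thresholds keep fewer peaks by construction. Peaks at imprinted genes in KO DMSO and WT DMSO were thus 32 against 30 with equal list sizes, and 74 against 52 without. Low input depth limits what a missing peak shows.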

Other observations

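Between Dlk1 and Meg3, in the intergenic stretch where the paternally methylated germline DMR of that domain is known to lie, and so outside the windows of the members, the DMSO lists each had a pair of peaks. In KO DMSO they lay at chr12:109526134-109527993 with a normalized tag count of 13.6 and at chr12:109528768-109529268 with 4.55. In WT DMSO they lay at chr12:109526135-109526635 with 3.10 and at chr12:109529238-109529738 with 3.39. Neither talazoparib list had a peak there. Further along the same domain, between the Meg3 cluster and Dio3, a region at chr12:109946426-109950316 was tagged in every list, with 21.5 in WT DMSO and 8.35 with talazoparib, and in KO cells 44.1 and 26.0. The peaks differed in width, and per bp the IP densities were 2.17, 2.47, 3.30 and 4.04 times the genome mean, so the lists with lower counts under talazoparib had the higher densities. WT DMSO had another peak within the region, at chr12:109949610-109950110 with 3.79.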
